A study of Rattus norvegicus with 24 samples.

Results

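Maoa encodes monoamine oxidase A, and its RNA was followed here in the 2 heart ventricles of rats. The array carried 1 probe named for Maoa among its 4803 probes and 4126 named genes, and this probe had a value on all 24 arrays. Maoa was chosen because its score was graded over the conditions in the right ventricle, so its right ventricle levels and differences are a description and carry no test. The left ventricle arrays took no part in that choice.

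The 24 samples are total RNA of rat ventricles at day 14, each compared on a 2-colour array with a common reference pool. The 3 conditions are written CHF, HYP and CON, with 6 right and 2 left ventricle samples each. The title of the series names monocrotaline with compensated and decompensated hypertrophy, and CHF is read here as the decompensated, HYP as the compensated and CON as the control condition, although the labels do not spell these out. Monocrotaline, an alkaloid from plants, damages the pulmonary circulation and thereby raises the load on the right ventricle. The labels give no strain, sex, age, dose or injected control agent, and do not state that samples are separate animals, so that any p-value covers only the spread between these samples.

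Monoamine oxidase A is a flavoenzyme of the outer mitochondrial membrane that oxidises serotonin, noradrenaline and dopamine, releasing an aldehyde, ammonia and hydrogen peroxide. In the heart it acts on noradrenaline released by sympathetic nerves and on serotonin, and it is known as a source of hydrogen peroxide in cardiac muscle. Its relative monoamine oxidase B, encoded by Maob, prefers phenylethylamine. In human cells the Maoa promoter has been described as driven by Sp1-type factors at GC boxes.

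Maoa and Maob are neighbours on the rat X chromosome and lie on opposite strands, and Acta1, the skeletal alpha-actin gene, is on another chromosome. Their promoter windows are shown because the 3 genes are set against each other in the results: Maob is the paired oxidase and Acta1 is among the genes whose scores were most like Maoa. Each window runs from 250 bases before to 50 bases after the RefSeq start of the gene in GRCr8 and is written 5′ to 3′ on the strand of the gene. The 50 bases after the Maoa start begin with atg, so that this start may be that of the coding sequence and not of the RNA. This was not tested, and the Maoa window may therefore not be placed like the others. Capitals mark the GC box GGGCGG on either strand and the TATA box letters TATAAA. The windows are chrX:8681323-8681622 for Maoa (minus strand), chrX:8490155-8490454 for Maob (plus strand) and chr19:68784145-68784444 for Acta1 (minus strand).
Maoa: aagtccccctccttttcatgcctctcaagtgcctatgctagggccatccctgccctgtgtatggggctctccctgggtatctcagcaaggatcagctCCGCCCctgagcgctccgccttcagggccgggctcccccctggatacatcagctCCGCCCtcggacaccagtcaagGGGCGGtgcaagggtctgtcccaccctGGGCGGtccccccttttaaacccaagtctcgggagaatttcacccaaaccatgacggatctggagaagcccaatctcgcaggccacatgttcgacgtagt
Maob: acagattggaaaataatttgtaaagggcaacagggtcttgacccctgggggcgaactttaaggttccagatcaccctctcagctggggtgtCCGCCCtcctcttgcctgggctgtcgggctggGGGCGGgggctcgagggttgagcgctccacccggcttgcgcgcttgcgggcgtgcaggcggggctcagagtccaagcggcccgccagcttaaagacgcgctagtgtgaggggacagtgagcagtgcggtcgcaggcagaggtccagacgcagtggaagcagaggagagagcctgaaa
Acta1: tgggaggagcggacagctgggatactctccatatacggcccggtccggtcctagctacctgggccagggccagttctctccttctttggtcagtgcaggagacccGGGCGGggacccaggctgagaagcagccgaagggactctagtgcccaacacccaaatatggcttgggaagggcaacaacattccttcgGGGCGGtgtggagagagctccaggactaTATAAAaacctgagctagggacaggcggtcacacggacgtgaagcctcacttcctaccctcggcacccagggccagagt
The Maoa window held 4 GC boxes and no TATAAA, and 61% of its bases were G or C. At least 4 GC boxes were found in 4.64% of the 33469 promoter windows of this length, and at least 1 in 33.1%. The Maob window held 2 GC boxes and no TATAAA, and the Acta1 window 2 GC boxes and 1 TATAAA, which 14.2% of all windows held. No 2 of these motifs overlapped. A match of letters describes the window only.

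The deposited values are scores without a stated scale. Every array had a mean near 0, between -0.0345 and 0.0713, and an SD between 0.870 and 1.01, and held 2162 to 3658 values. Each array was centred on its median, so that a Maoa score of 1 lies about 1 array SD above the middle probe of its array, and a difference is in array SDs and is no fold change. A positive score was read as more RNA in the sample than in the pool. This direction is not settled, because the sources used here name no dyes and 13 pairs of arrays correlated below -0.3 across probes, the lowest at -0.530. The differences, ranks, order and correlations of Maoa are therefore also given with the sign turned on 5 arrays, namely right ventricle CHF 10 and 14 and left ventricle CHF 09, CON 21 and CON 22, a set chosen from those correlations.

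Maoa was high on every right ventricle array of the CHF group. Its centred score there was 2.37 on array 09, 1.50 on array 10, 1.29 on array 11, 0.840 on array 12, 1.39 on array 14 and 1.47 on array 15. In the HYP group it was 2.04 on array 01, -0.116 on array 03, 0.934 on array 04, -0.828 on array 05, 0.535 on array 06 and -0.827 on array 08. In the CON group it was -2.27 on array 17, -3.03 on array 18, -3.10 on array 19, -1.41 on array 20, -0.932 on array 21 and -2.36 on array 22. All 6 CHF values were above 0, all 6 CON values were below it, and the HYP values lay on both sides. The HYP group was the most spread, with array 01 as high as the CHF arrays and arrays 05 and 08 just above the highest CON array.

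The group means were 1.48 ± 0.498 in CHF, 0.290 ± 1.11 in HYP and -2.18 ± 0.867 in CON right ventricles (SD, n = 6 each). CHF exceeded CON by 3.66, and the lowest CHF array lay 1.77 above the highest CON array. HYP exceeded CON by 2.47, but the groups missed overlapping by only 0.104, the distance between HYP array 05 and CON array 21. CHF exceeded HYP by 1.19, the groups overlapped, and 1 of 6 CHF values lay above all HYP values. The pooled SD within the groups was 0.864.

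With the sign of CHF arrays 10 and 14 turned, these arrays stood at -1.50 and -1.39, within the range of CON, and the differences were 2.70 for CHF against CON and 0.223 for CHF against HYP. Without these 2 arrays they were 3.68 and 1.20. Turning the sign of these 2 arrays thus took away most of the step between CHF and HYP, while leaving them out kept it. HYP against CON, which does not use them, was unaffected.

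**Figure D1:**
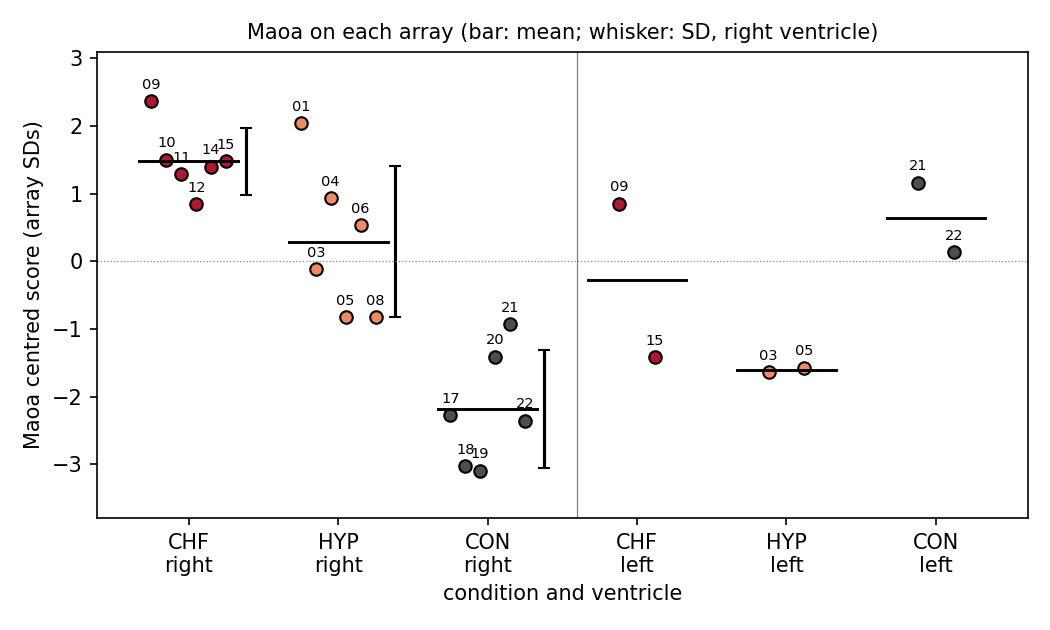
Maoa on each of the 24 arrays, as the score centred on the array median in array SDs (vertical axis), by condition and ventricle (horizontal axis); points carry the array number of the labels, bars are group means and whiskers the SD of 6 right ventricle arrays. The CHF right ventricle points lie between 0.840 and 2.37, the CON right ventricle points between -3.10 and -0.932, and the HYP points spread between them.

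The place of Maoa among the other probes of the same array gives the same picture without any scaling. It stood between the 90.5th and 98.8th percentile on CHF right ventricle arrays (median 94.1), between the 19.8th and 98.4th on HYP arrays (median 58.1) and between the 0.293rd and 20th on CON arrays (median 1.06). The CHF range was 7.43 to 98.8 (median 93.1) with the sign turned. Percentiles compare ratios to the pool and not RNA levels of different genes. Among the 1482 named genes with a value on all 18 right ventricle arrays, Maoa ranked 3 by size of a positive difference for CHF against CON, 3 for HYP against CON and 7 for CHF against HYP. The ranks were 6, 3 and 434 with the sign turned. Of 1656 features (named genes and unnamed probes) on all 18 arrays, 26 had CHF and CON values that did not overlap, 14 had HYP and CON values that did not, and 4 had CHF and HYP values that did not, or 23, 14 and 6 with the sign turned. By the fit across all features (limma, adjusted p below 0.05), the share called was 0.907% of 3199 for CHF against CON, 0.281% for HYP against CON and 0.000% for CHF against HYP. No support is drawn from these shares for Maoa, which was chosen on them.

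In the left ventricle the order of the conditions was not that of the right. Maoa stood at 0.852 on CHF array 09 and at -1.42 on CHF array 15. In HYP left ventricles it was -1.65 on array 03 and -1.57 on array 05, and in CON left ventricles 1.16 on array 21 and 0.130 on array 22. Both HYP arrays lay below both CON arrays, and the 2 CHF arrays lay on either side of the lower CON array, with array 15 close to HYP. The group means were -0.284 in CHF, -1.61 in HYP and 0.645 in CON (n = 2 each).

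None of the 3 left ventricle differences of Maoa passed the test. HYP against CON was -2.25 ± 0.844 (SE, limma over all 24 arrays, unadjusted p = 0.0140, adjusted p = 0.996), and Maoa ranked 8 of 2494 features by its p. CHF against CON was -0.929 ± 0.844 (limma adjusted p = 0.9998) and CHF against HYP 1.33 ± 0.844 (limma adjusted p = 0.958). The share of features called was 0.000% in each of these 3 comparisons, where 22 features for CHF against CON, 46 for HYP against CON and 75 for CHF against HYP had an unadjusted p below 0.05. The CHF left ventricle difference from CON was 0.207 without CHF array 15, so that its sign rested on that array, and -2.07 without CHF array 09. With the sign of the 3 left ventricle arrays turned, HYP against CON was -0.965, CHF against CON -0.491 and CHF against HYP 0.474. Haemoglobin genes, as markers of red blood cells, were also lower in HYP than in CON left ventricles on average, with Hba-a1 at -5.31 and Hbb at -5.46 (limma adjusted p = 0.996 each), and the median over the 4 tested erythrocyte genes was -4.49. That came from 1 array: the summed score of the 4 genes was 15.7 on HYP array 03 and -18.7 on HYP array 05, against 16.9 and 11.7 on CON arrays 21 and 22. Maoa was alike on both HYP arrays.

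Averaged over the conditions, Maoa was 0.277 higher in the right than in the left ventricle, a description without a test because the right ventricle values chose the gene. The difference was -0.102 without CHF left ventricle array 15 and 0.669 with the sign turned. The sign of the difference was not the same in every condition. Right minus left for samples with the same number in the labels was 1.52 for CHF 09 and 2.89 for CHF 15, 1.53 for HYP 03 and 0.746 for HYP 05, and -2.09 for CON 21 and -2.49 for CON 22. Thus 4 of 6 same-numbered differences were above 0, all in CHF and HYP, and both CON differences were below 0. With the sign turned, CON 21 moved to 0.228 and CON 22 stayed at -2.23.

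**Figure D2:**
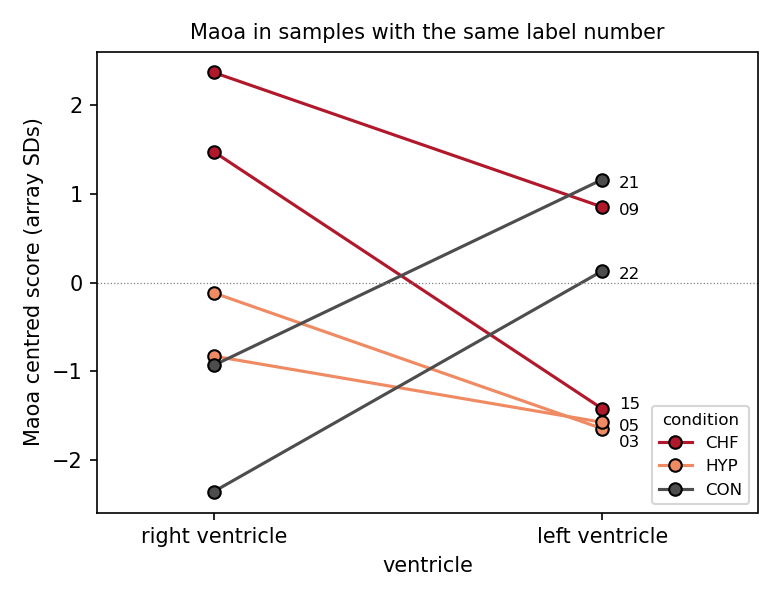
Maoa centred score in array SDs (vertical axis) in the right and the left ventricle (horizontal axis), with lines joining the 6 samples that carry the same number in the labels, which do not state that they are 1 animal. The 4 CHF and HYP lines run lower on the left and both CON lines run higher on the left.

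Ordered by group mean, Maoa was highest in CHF right ventricles, followed by CON left, HYP right, CHF left, HYP left and CON right ventricles. The lowest CHF right values reached below the higher CON left value. The neighbours CON left, HYP right and CHF left lay within 0.929 of each other with overlapping values. CHF left and HYP left ventricles did not overlap, but lay only 0.154 apart. HYP left and CON right ventricles overlapped, at -1.65 and -1.57 against a range of -3.10 to -0.932. The order with the sign turned was CHF right (mean 0.512), HYP right (0.290), CON left (-0.645), CHF left (-1.14), HYP left (-1.61) and CON right (-2.18).

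The identity of the signal rests on 1 probe, so that no second Maoa probe could check it. Single probes of other genes were therefore set against it, a comparison chosen after the likeness of the genes below had been seen. Of the 1673 probes with a value on all 18 right ventricle arrays, the one most like the Maoa probe was 1 of the 2 probes named for Fgb, the fibrinogen beta chain made mainly by liver, with a Pearson correlation of 0.998. No other pair among the 1398628 pairs of these probes correlated more closely, and the median over probes of the correlation with the closest partner was 0.896.

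This Fgb probe, number 3713 of the array, stood at 2.25, 1.34, 1.24, 0.833, 1.41 and 1.25 on CHF right ventricle arrays 09, 10, 11, 12, 14 and 15. On CON right ventricle arrays 17 to 22 it stood at -1.98, -2.93, -2.83, -0.999, -0.852 and -2.16. Array by array the Maoa score differed from it by between -0.414 and 0.220 in the right ventricle, with a mean absolute difference of 0.122 over 18 arrays. In the left ventricle, which had no part in choosing Maoa, the difference was between -0.0700 and 0.330, the correlation 0.995 over 6 arrays, and the Fgb probe gave -2.01 for HYP against CON. The deviations from the right ventricle group means correlated at 0.993, so that the 2 probes also shared their spread within groups. The correlations were 0.998 in the right and 0.990 in the left ventricle with the sign turned.

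The other Fgb probe, number 2148, did not follow. Its correlation with Maoa was 0.459 in the right and -0.0610 in the left ventricle, and its CHF minus CON difference in the right ventricle was 0.469, against 3.34 for probe 3713. Acta2, the smooth muscle alpha-actin gene, had the same split. Its probe 1745 correlated with Maoa at 0.988 and differed between CHF and CON by 4.14, while its probes 4338 and 4364 correlated at 0.357 and 0.0861 and differed by 0.417 and 0.188. Over the 22 pairs of probes named for the same gene and measured on all 18 arrays, the median correlation was 0.225, between -0.593 and 0.982. The median over all pairs of probes was 0.0465. Probes of 1 gene thus often disagreed on this array, although their median was above that of all pairs. With the sign turned, Fgb probe 2148 and Acta2 probes 4338 and 4364 correlated with Maoa at 0.295, 0.232 and 0.184 in the right ventricle, but at 0.740, 0.783 and 0.741 over the 6 left ventricle arrays. Whether the Maoa probe reports Maoa RNA separately from that of the other genes was not tested.

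**Figure D3:**
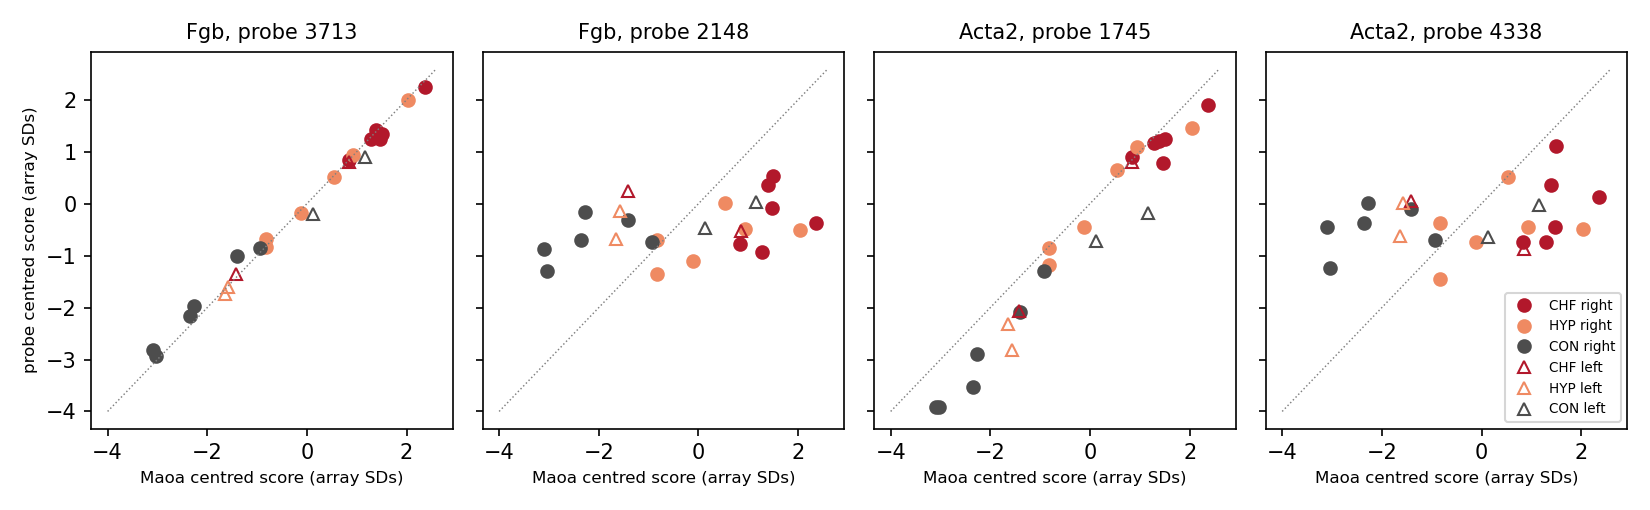
Centred scores of 4 single probes (vertical axes, array SDs) against the Maoa probe (horizontal axes, array SDs) on 24 arrays; filled circles are right and open triangles left ventricle arrays, colours give the condition, and the dotted line marks equal scores. Fgb probe 3713 lies along the line with a correlation of 0.998 in the right ventricle and Acta2 probe 1745 follows at 0.988, while Fgb probe 2148 and Acta2 probe 4338 scatter at 0.459 and 0.357.

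By gene means, the named genes most like Maoa over the 18 right ventricle arrays were muscle and calcium-binding genes beside unrelated ones. Ocm, which encodes the calcium buffer oncomodulin, and Acta1, which belongs to the fetal programme of the loaded heart, both correlated at 0.990. Safb, encoding a nuclear scaffold protein, followed at 0.975, Acta2 at 0.974, Bdkrb1, the bradykinin B1 receptor gene, at 0.967, Fgb at 0.967, Capn3, a muscle calpain gene, at 0.964 and Tpm3, a tropomyosin gene, at 0.950. The next gene was Pvalb, encoding parvalbumin, at 0.941, and 10 of 1481 genes were above 0.9, where the median gene was at -0.128. Ocm and Acta1 with the sign turned stood at 0.991 and 0.989, followed by Fgb at 0.972, Acta2 at 0.960, Capn3 at 0.959, Bdkrb1 at 0.953, Safb at 0.945 and Tpm3 at 0.924. Correlations are given as a description, over arrays that share the reference pool and fall into 3 conditions.

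All 8 genes also correlated with Maoa in the left ventricle, between 0.859 and 0.967 over 6 arrays, but were not all high where Maoa was high. On CON left ventricle array 21, where Maoa was highest at 1.16, Fgb stood at 0.465 and Acta1 at 0.410. The others were below 0 there: Bdkrb1 at -0.100, Capn3 at -0.360, Ocm at -0.400, Acta2 at -0.470, Safb at -0.990 and Tpm3 at -1.23. Within the right ventricle groups, the deviations most like those of Maoa were those of Acta1 (0.955), Ocm (0.951), Fgb (0.910), Safb (0.884), Acta2 (0.881) and Chgb (0.844), the last encoding the secretory granule protein chromogranin B. Leaving out the 2 arrays farthest from the Maoa median left the 8 correlations between 0.942 and 0.990. The score of Acta1 in CHF right ventricles had a lowest value of 1.08, a median of 1.62 and a highest value of 2.71, against -4.13, -2.73 and -0.947 in CON. Ankrd1, a stretch-responsive cardiac gene, correlated at 0.786. With Acta1 it was the basis for reading a positive score as more RNA, a direction that is not settled. The right ventricle CHF minus CON difference of Ankrd1 was 1.56 and was not called (limma adjusted p = 0.112). Its mean was 1.32 in CON left ventricles, against 1.19 in CHF right ventricles.

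The genes that ran most opposite to Maoa were Tcf21, a transcription factor gene of fibroblast precursors (-0.846), Sdc3, a syndecan gene (-0.735), Cat, encoding the hydrogen peroxide-degrading enzyme catalase (-0.723), and Inha, the inhibin alpha gene (-0.714), or -0.778, -0.673, -0.701 and -0.627 with the sign turned. Within the groups the deviations of Cat correlated with Maoa at only -0.242, so that its likeness came mostly from the group means. The first component of the deviations over all genes, which held 43.3% of their variance, correlated with the Maoa deviations at 0.190, and the number of values on an array at -0.147.

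**Figure D4:**
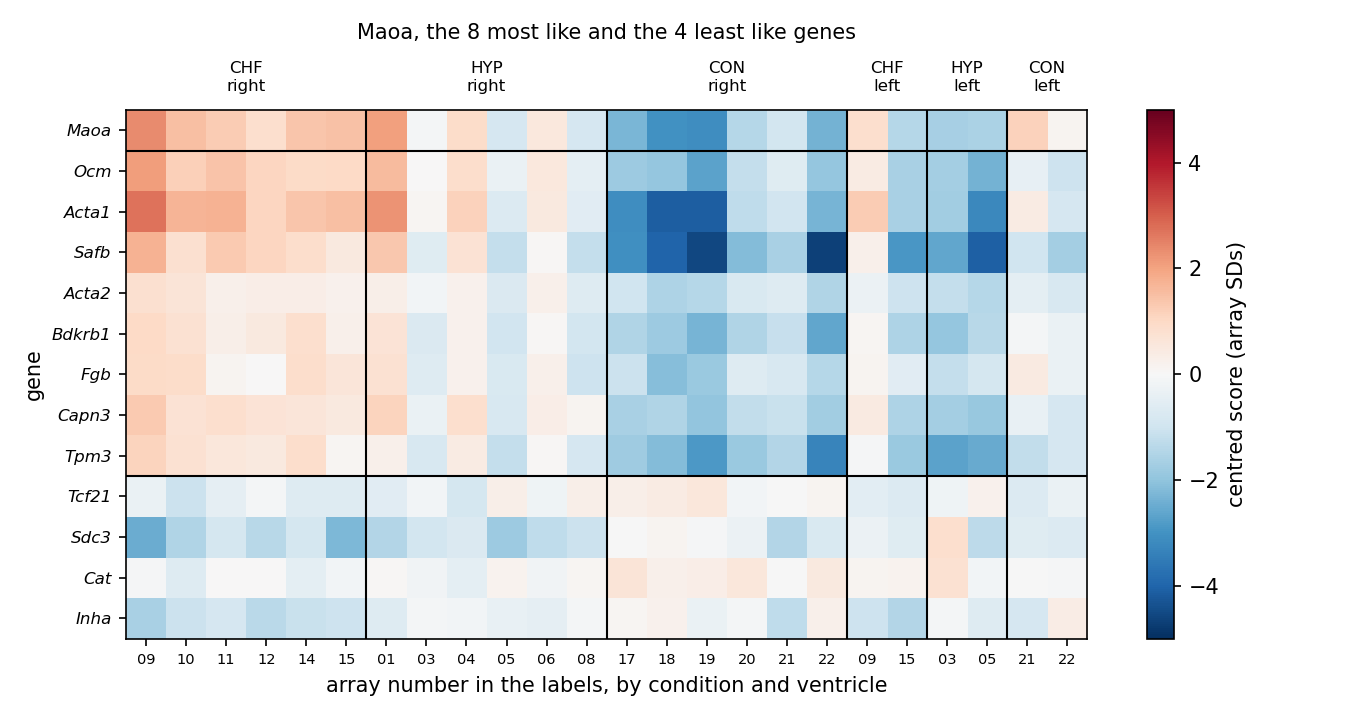
Centred scores in array SDs (colour) of Maoa, its 8 most like and 4 least like genes by right ventricle correlation (rows, gene means over probes) on 24 arrays (columns, by condition and ventricle, with array numbers). Maoa, Ocm, Acta1 and Safb are red on CHF and blue on CON right ventricle arrays, with HYP array 01 as red as the CHF arrays.

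Maob, the companion oxidase, did not share the pattern. In right ventricles it stood at -1.31, -0.459, 0.256 and 0.954 on CHF arrays 09, 10, 11 and 15, and at 0.244, 0.887, 1.13 and 0.559 on CON arrays 18, 19, 20 and 21. The groups overlapped, with a CHF minus CON difference of -0.843 ± 0.421 (SE, n = 4 and 4, limma adjusted p = 0.608), which was -0.454 without CHF array 09. Maob correlated with Maoa at -0.531 over the 13 right ventricle arrays on which it had a value. In HYP right ventricles Maob averaged 0.378 ± 0.226 (SD, n = 5).

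The other genes that make, move, sense or degrade monoamines were taken from 5 lists with 68 genes besides Maoa. Of these, 52 were on the array, 14 of which had no value on any array, and 30 had values on enough arrays for the right ventricle fit. None of the 30 was called for CHF against CON, where 0.907% of all features were, nor for HYP against CON or CHF against HYP (limma). For CHF against CON 1 of the 30, Adrb1, had an unadjusted p below 0.05, against 272 of 3199 features. The median CHF minus CON difference of the 30 was -0.159, against -0.0992 over all features, and 11 of 30 were above 0.

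Among enzymes of monoamine degradation, 8 genes besides Maoa were tested and 2 of them were above 0 for CHF against CON. Aldh3a2 and Aldh7a1, aldehyde dehydrogenase genes, were at -0.374 ± 0.263 and -0.444 ± 0.265, and the sulfotransferase gene Sult1a1 at -0.764 ± 0.452 (SE). The aldo-keto reductase genes Akr1b1 and Akr1a1 were at -0.295 ± 0.330 and 0.0830 ± 0.308, the vascular amine oxidase gene Aoc3 at 0.0518 ± 0.599, and Aanat, encoding the acetyltransferase of the melatonin pathway, at -0.112 ± 0.358. Each of these differences was under 2 SE from 0, and their smallest limma adjusted p, Maob included, was 0.608.

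Of the genes of monoamine synthesis, Th, encoding the rate-limiting enzyme of catecholamine synthesis, was at 0.0424 ± 0.612 and Ddc, encoding the decarboxylase, at 0.145 ± 0.600 for CHF against CON. Pnmt, whose enzyme makes adrenaline, was at -0.226 ± 0.501, and the pterin cofactor genes Spr and Qdpr at 0.827 ± 0.499 and -0.677 ± 0.346. Of the transporter genes, the serotonin transporter gene Slc6a4 was at 1.03 ± 0.622 on 2 CHF and 3 CON arrays, and the organic cation transporter gene Slc22a3 at -1.31 ± 0.854 on as few. The vesicular transporter genes Slc18a1 and Slc18a2 were at 0.221 ± 0.449 and -0.265 ± 0.331. None of these 9 genes was called (limma).

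Adrb1, the gene of the main cardiac beta-adrenergic receptor, gave the smallest p of the monoamine genes. Its score in CHF right ventricles had a lowest value of -0.525, a median of -0.0110 and a highest value of 0.482, against 0.116, 0.977 and 2.55 in CON. The ranges overlapped, and the difference of -1.08 ± 0.377 (SE, n = 6 and 6) did not pass (limma adjusted p = 0.315). Adra1b and Adra2c, genes of alpha-adrenergic receptors, were at 0.00817 ± 0.410 and -0.176 ± 0.264. Among 10 serotonin, dopamine and histamine receptor genes the differences lay between -0.721 for Htr3b, a subunit gene of the serotonin-gated channel, and 0.202 for Htr2a, the serotonin 2A receptor gene.

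**Figure D5:**
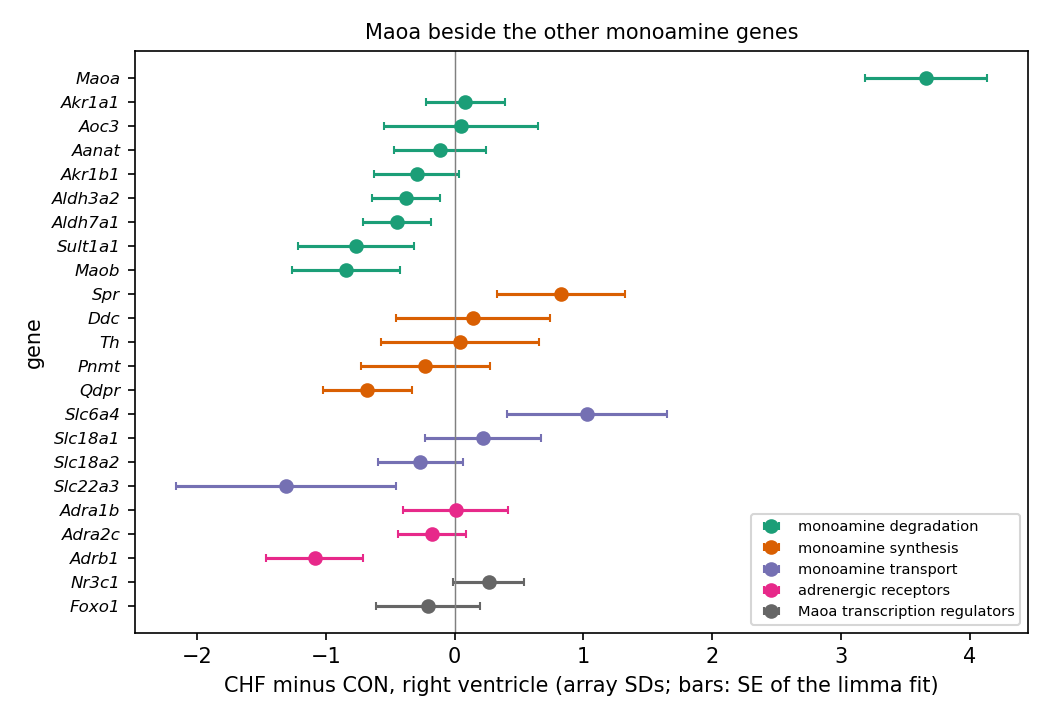
CHF minus CON difference in right ventricles (horizontal axis, array SDs, bars are the SE of the limma fit) for Maoa and the tested genes of monoamine degradation, synthesis and transport, adrenergic receptors and regulators of Maoa transcription (vertical axis, colours give the list). Maoa, chosen for this difference, lies at 3.66, and the other genes lie between -1.31 and 1.03.

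Of the 6 genes listed as regulators of Maoa transcription, Nr3c1, the glucocorticoid receptor gene, was at 0.264 ± 0.278 and Foxo1, a forkhead factor gene, at -0.207 ± 0.402 for CHF against CON, and neither was called (limma). Of genes that handle hydrogen peroxide, a product of the Maoa reaction, 15 were tested and none was called in the right ventricle comparisons, beside 0.907% of all features for CHF against CON, 0.281% for HYP against CON and 0.000% for CHF against HYP. For CHF against CON 3 of the 15, Prdx5, Cat and Prdx3, had an unadjusted p below 0.05 (limma), against 272 of 3199 features. Prdx5, a mitochondrial peroxiredoxin gene, was at -0.925 ± 0.286 (limma adjusted p = 0.221), with CHF values between -0.931 and 0.260 and CON values between -0.0470 and 1.46. Cat was at -0.599 ± 0.208 (limma adjusted p = 0.315), or -0.211 with the sign turned. Of 13 tested genes of the outer mitochondrial membrane, where the enzyme sits, none was called in these 3 comparisons either. Cpt1b, the muscle carnitine palmitoyltransferase gene, was at -2.38 ± 1.07 (limma adjusted p = 0.548) and the import receptor gene Tomm70 at 0.718 ± 0.343 (limma adjusted p = 0.583).

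Between the ventricles, 3 of the 24 monoamine genes in that fit, which leave out Maoa, were called, 12.5%, against 18.3% of all features. Adrb1 was higher in the right ventricle by 1.07 ± 0.297 (limma adjusted p = 0.0201) and Adra1b by 1.02 ± 0.309 (limma adjusted p = 0.0301), while Slc18a1 was lower by -1.22 ± 0.361 (limma adjusted p = 0.0301). With the sign turned on the 5 arrays none of the 3 was called and Adra1b stood at -0.322. The call of Adrb1 ended without left ventricle array HYP 03, CHF 09 or CON 21 (0.881 to 1.01). That of Adra1b ended without any 1 of the 6 left ventricle arrays (0.950 to 1.08), and that of Slc18a1 without HYP 03, CHF 09, CHF 15 or CON 21 (-1.38 to -0.863). In the left ventricle itself none of the 24 was called in any of the 3 comparisons (limma), with 0, 1 and 0 at an unadjusted p below 0.05 for CHF against CON, HYP against CON and CHF against HYP. The single one was Maob, which stood at 1.11 and 0.647 in HYP left ventricles, against 0.380 and -1.39 in CON left ventricles (limma adjusted p = 0.996).

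In the other lists, 15 genes that handle hydrogen peroxide were tested, with 1 called higher in the right ventricle and 1 lower. Of 12 tested genes of the outer mitochondrial membrane, 1 was called higher and 2 lower. Of all 2494 features, 18.3% were called, 294 higher and 163 lower, so the calls are not read as results about these lists. Prdx4, a peroxiredoxin gene of the secretory pathway, was higher in the right ventricle by 1.30 ± 0.280 (limma adjusted p = 0.00560). Cpt1a, the liver-type carnitine palmitoyltransferase gene, was higher by 1.36 ± 0.279 (limma adjusted p = 0.00666). Cpt1b was lower by -2.65 ± 0.739 (limma adjusted p = 0.0250), and without left ventricle HYP 03, CHF 09, CON 21 or CON 22 its call ended at -2.68 to -2.30. Prdx1, a cytosolic peroxiredoxin gene, at -0.772 ± 0.258, and Hk2, the insulin-regulated hexokinase gene, at -1.34 ± 0.442, had limma adjusted p-values of 0.0427 each. The call of Prdx1 ended without left ventricle HYP 05, CHF 09, CHF 15, CON 21 or CON 22 or right ventricle HYP 03, HYP 08, CHF 09, CHF 11, CHF 15 or CON 18 (-0.908 to -0.606). That of Hk2 ended when any array was left out other than right ventricle HYP 04, HYP 06, CHF 10, CHF 14, CON 19, CON 21 and CON 22 and left ventricle HYP 03 and CON 21 (-1.56 to -0.855). With the sign turned none of these 5 was called. Some marker genes of red blood cells, cardiac muscle, fibroblasts and smooth muscle differed between the ventricles as well, in both directions. Of 5 tested fibroblast genes 1 was called, Lum, higher in the right ventricle by 1.10 (limma adjusted p = 0.0238). Of 5 tested smooth muscle and pericyte genes 1 was called, Acta2, higher by 0.583 (limma adjusted p = 0.0436), and the lowest was at -0.957. Each count is 20%, near the 18.3% of all features. All 4 tested of the 8 erythrocyte genes were lower in the right ventricle, namely Hba-a1 by -6.29, Hbb by -5.89, Hbb-b1 by -5.00 and Alas2 by -1.91 (limma adjusted p = 0.00250, 0.00462, 0.00116 and 0.0378). Of the 8 tested cardiomyocyte genes, Myl3 was lower by -2.95 and Ckm by -2.14 (limma adjusted p = 0.0427 and 0.00752). None of these 6 erythrocyte and cardiomyocyte genes was called with the sign turned. Leaving out any of the arrays named for Prdx1 also ended the call of Alas2 (-2.02 to -1.65). That of Myl3 ended when any array was left out other than right ventricle HYP 04, HYP 06, CHF 10, CHF 12, CHF 14, CON 19, CON 20 and CON 22 (-3.14 to -2.75). Their part in the differences between ventricles was not tested.

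Fewer cells of a type and less RNA per cell cannot be told apart in these tissue samples, and ratios to a pool give no absolute level, so that the heart identity of the samples could not be checked from marker levels. The summed centred scores of the cell type lists overlapped between CHF and CON right ventricles for the 10 lists with a gene on all 18 arrays. The smooth muscle and pericyte list, which holds Acta2, ran between 0.274 and 2.85 in CHF and between -2.23 and 0.490 in CON over the 3 of its 10 genes used. The sympathetic nerve list, which holds Chgb, with 3 of 9 genes used, ran between -0.430 and 1.60 in CHF and between -1.99 and 1.82 in CON. Its deviations within the groups correlated with those of Maoa at 0.853, while those of the cardiomyocyte list, with 8 of 12 genes used, did at 0.319. Those of the atrial list, with 1 of 4 genes used, did at -0.772. Chgb had been named above because its deviations were like those of Maoa (0.844). The value of the sympathetic nerve list therefore partly repeats that choice. No endothelial gene was on all 18 arrays. Of the 2 endothelial genes tested, 1 was called, Cav1, higher in CHF than in CON by 4.92 ± 0.868 (SE, limma adjusted p = 0.0302). Its values were 5.13 and 3.47 on CHF arrays 10 and 14 alone, against -1.16, -0.113 and -0.579 on CON arrays 17, 19 and 20. The other, Flt1, was at -0.0763 ± 0.390 (SE, n = 6 and 6, limma adjusted p = 0.974). For Cav1, turning the sign of CHF arrays 10 and 14 gave -3.68 (limma adjusted p = 0.194). Its call ended without HYP array 06 or CON array 17, 19 or 20 (4.65 to 5.17). Without CHF array 10 or 14 Cav1 had too few CHF values to be fitted. Among the other markers tested for CHF against CON, only Acta2 was called, at 1.58 ± 0.252 as the mean of its 3 probes (SE, limma adjusted p = 0.00132). That mean rested mostly on probe 1745, at 4.14, against 0.417 and 0.188 for probes 4338 and 4364. It was 1 of 6 tested smooth muscle and pericyte genes, of which 4 were above 0 and the lowest was at -0.134. Of all features, 0.907% were called in this comparison. Whether these cell types have a part in the Maoa score was not tested.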

How the data were processed

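RNA of 24 rat ventricle samples was measured on 2-colour arrays against a reference pool. The authors deposited 1 score per probe and array. Their scale, log base, dyes, background correction and filters are stated in none of the sources used here. The tests had been planned for log ratios or scores. Genes were named through the platform annotation (4278 probes with 1 symbol, 4 with several, 521 with none), matched by Entrez identifier to RefSeq, which changed 0 symbols. Probes of a gene were averaged. Promoter windows are from RefSeq (GRCr8). Arrays were centred on their medians because these lay over 0.2 apart.

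limma 3.58.1 in R 4.3.3 was run on 18 right ventricle arrays for right ventricle comparisons and on 24 arrays in 6 groups otherwise, with at least 2 arrays of each group and Benjamini-Hochberg adjustment over all features, and was tested on simulated data. The right minus left difference of Maoa, planned as a test, is given without one. Left ventricle groups of 2 were assumed to vary like the others.

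Named genes were Maoa, Acta1 and Ankrd1, the 8 most and 4 least correlated genes, the 6 with the most correlated deviations, tested genes of the monoamine degradation, synthesis, transport, adrenergic and regulator lists, and of other lists the called ones and the 2 with the smallest p; Pvalb, Htr2a and the single probes were added after their values were seen. The gene and the lists were chosen with earlier results of these data known. Alternatives were the deposited scores, scaling by the median absolute deviation (MAD), the sign turned on 5 arrays, array weights, a replicate block and leaving out arrays.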

Additional observations from a re-analysis of the deposited data

Results flagged for a closer look

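The HYP minus CON difference of Maoa ran in opposite directions in the 2 ventricles. All 6 HYP right ventricle arrays lay above all 6 CON right ventricle arrays, by 2.47 in the means, and both HYP left ventricle arrays lay below both CON left ventricle arrays, at -2.25. The right difference minus the left difference was 4.73 array SDs. This difference between the ventricles was not tested, because the right ventricle values chose the gene, and the left ventricle has 2 arrays a group. With the sign turned on CON left ventricle arrays 21 and 22 the left difference stayed below 0, at -0.965. No value among the 48 groups of arrays examined, for Maoa and the other genes with group values, stood far enough from its group to be marked as an outlier.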

How the results depend on the processing

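For Maoa and the counts of called monoamine genes, every alternative kept direction, call and, within the spread, size except the following. Scaling by the MAD moved the CHF minus CON difference of Maoa in right ventricles to 4.53, and turning the sign of 5 arrays moved it to 2.70 and CHF minus HYP to 0.223. Leaving out 1 array at a time gave 3.48 to 3.91 for CHF minus CON, 2.12 to 2.72 for HYP minus CON and 0.963 to 1.54 for CHF minus HYP. In left ventricles the ranges were -2.07 to 0.207 for CHF minus CON, -2.77 to -1.74 for HYP minus CON and 0.190 to 2.46 for CHF minus HYP. Right minus left ranged between -0.102 and 0.655. Left ventricle CHF minus CON and right minus left changed sign when CHF left ventricle array 15 was left out and for no other array, and the cause was not tested.

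The count of monoamine genes called for right minus left was 0 with the sign turned, 10 with array weights, 6 without CHF right ventricle arrays 10 and 14, and 0 to 3 leaving out 1 array, against 3. The shares of all features called under these settings are not given, so the counts are not read as results about monoamine genes. It was 0 without left ventricle array HYP 03, CHF 09 or CON 21 and 1 without CHF 15. The left ventricle HYP minus CON count was 1 with the sign turned, against 0. Adra1b stood at -0.322 with the sign turned. The cause was not tested.

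The numbers shared by right and left samples did not show pairing: same-numbered deviations correlated between -0.200 and 0.305, and not every sample correlated best with its own number. With the number as a replicate block, Maoa right minus left was 0.351, given without a test, and 11 monoamine genes were called. That count also stands without the share of all features called in the same fit, and nothing is read from it. Over the 27 results and named genes examined, 497 alternative values kept direction and call and 57 lost a call. No signal over background is given beside the scores, so the precision of a score could not be judged from signal strength.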
